A study of Bos taurus with 48 samples.

Results

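The muscle of growing cattle was compared at 3 months and at 7 months of age. The 8 arrays labelled 3 or 7 months were taken, 4 for each age, out of 48 arrays in the whole series, and both dye channels of every array were used as intensities, which gives 16 of 96 channels. RNA came from the longissimus muscle (LTL) of cattle of 2 crosses, Piedmontese × Hereford and Wagyu × Hereford, and each array carried 1 animal of each cross. The samples were biopsies, and the same animals were sampled again as they grew. Of the 9 animals at these 2 ages, 7 were measured at both, in the same dye and on the same slide: GP130, GP201 and GP285 of the Piedmontese cross, and GW169, GW179, GW212 and GW245 of the Wagyu cross. GP112 was measured at 3 months alone and GP273 at 7 months alone. Their channels enter the ranges given below, but they add nothing to the fitted change, which is the mean change within the 7 animals. The replicate number, from 1 to 4, is the number of the slide. Every 3 months array lay in position 1 of its slide and every 7 months array in position 2, so age and array position cannot be told apart within these slides. Array position was measured on other slides of the series, which carried Belmont Red cattle on a weight loss or a weight growth diet. The labels give neither the time of day nor the feeding of the animals at a biopsy.

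Between these ages a calf leaves a diet in which milk supplies much fat and comes to live on forage. Skeletal muscle grows after birth by enlargement of fibres that were formed before birth, with nuclei added from satellite cells, while fetal forms of contractile proteins are replaced by adult ones. Fat cells between the fibre bundles fill with lipid later than those of other depots, and in cattle they make the marbling of beef, for which the Wagyu is known, whereas the Piedmontese is known for heavy muscling caused by a variant of myostatin.

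On each array, spots well above background made up 58.3% to 72.6% in Cy3 and 63.8% to 73.6% in Cy5. The scanner software marked 903 spots as outliers on the 3 months array of replicate 2 and between 64 and 114 spots on the 7 months arrays. In all, 13587 genes were tested, from 14552 probes with a signal well above background in 8 or more of the 16 channels. The tissue label was checked against skeletal muscle markers: all 9 that are on the array, among them ACTA1, CKM, MB, TTN and NEB, were measured, and none of them passed the test between the ages (limma, 0 of 9 at an unadjusted p below 0.05). The log2 of their summed intensity lay between 19.74 and 20.09 at 3 months and between 19.79 and 20.12 at 7 months.

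From 3 to 7 months 1007 genes rose and 914 fell, 14.1% of the genes tested in all, 7.41% upward and 6.73% downward (limma separate-channel fit with animal as a block, two-sided, Benjamini-Hochberg adjusted p below 0.05). The changes were mostly small: the median size of the log2 change of these 1921 genes was 0.36, and only 45 of them changed by 2-fold or more, 5 upward and 40 downward. All 7 animals moved the same way in 1463 of the 1921 genes, beside 2094 of all 13587 genes tested (15.4%). The calls rest on these same 7 changes, so this agreement is no separate evidence. The levels of the 8 channels at 3 months and of the 8 channels at 7 months did not overlap in 191 genes, 1.41% of those tested. Without replicate 3 the number of genes called was 480 and without replicate 4 it was 985. Without replicates 1 or 2 it was 2360 or 1479, and every one of the 1921 genes kept its direction in each of these fits. When each channel was only centred on its median, with no loess or quantile step, 0 genes passed (limma, 2165 at an unadjusted p below 0.05), and 1796 of the 1921 kept their direction.

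**Figure D1:**
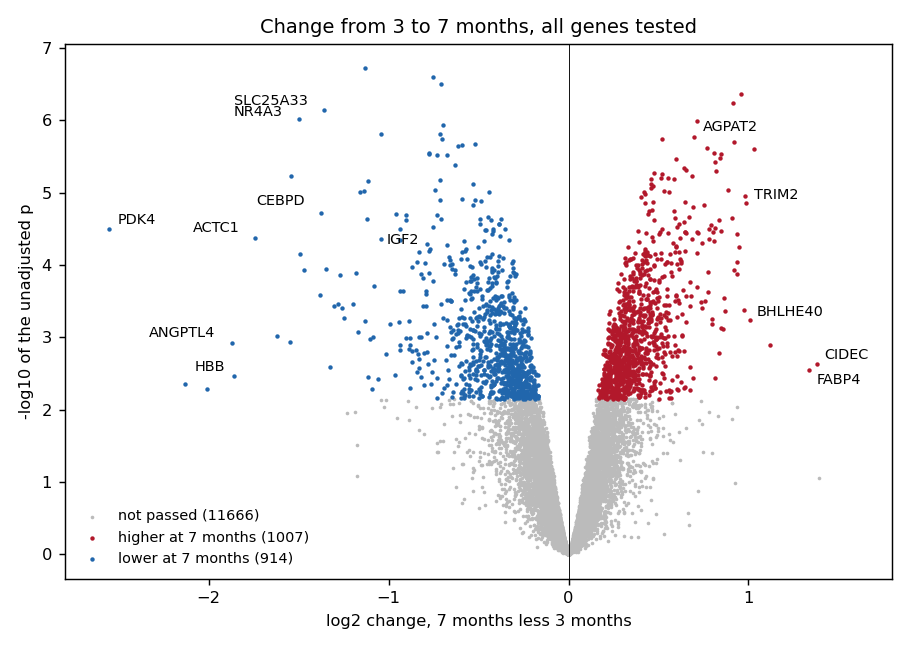
Each point is 1 of the 13587 genes tested, with the log2 change from 3 to 7 months on the horizontal axis and −log10 of the unadjusted p of limma on the vertical axis. Red points rose (1007), blue points fell (914) and grey points did not pass. The largest falls, such as PDK4 at −2.55, reach farther from 0 than the largest rises, such as CIDEC at 1.38.

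The largest fall that all animals shared was that of PDK4, the pyruvate dehydrogenase kinase that holds carbohydrate carbon back from the citric acid cycle when fat is burned. Its log2 intensity lay between 13.57 and 15.19 (median 14.50) in the 8 channels at 3 months and between 9.69 and 13.27 (median 11.70) at 7 months. The lowest channel at 3 months was thus above the highest at 7 months. The fitted change was −2.55 ± 0.34 (log2, SE, n = 7 animals, adjusted p = 0.00413), which is a 5.88-fold higher level at 3 months. The change lay between −4.76 (GP285) and −1.52 (GW245) in the animals. At 12 months the mean of the 8 channels, which came from 6 animals, was 10.69 and at 20 months it was 11.69.

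The probes of the genes on which the results turn are shown here so that it can be seen what the array measured. They are the first 30 bases of each deposited 60-base probe, 5′ to 3′, in lower case throughout since no base is singled out. ACTA1, the skeletal actin, is set beside ACTC1, the cardiac actin of developing muscle, because their proteins are nearly the same. The longest run of bases shared by these 2 probes was 4 on the same strand and 5 on opposite strands. Only probe was compared with probe, so whether either also binds the RNA of the other gene was not tested.
PDK4: tccagaaatttctgattgtcctttgctttc
CIDEC: atcccaaatgctcctgagtgaaccatcaac
ACTC1: caccctccctcatctctcatcaatcattgt
ACTA1: taaaacgaagccctgtggaaggaaatggaa
In the RefSeq table of the assembly ARS-UCD2.0, PDK4 lies on chromosome 4 from 12881889 to 12895362, CIDEC on chromosome 22 from 16864384 to 16873816, ACTC1 on chromosome 10 from 30288631 to 30293908 and ACTA1 on chromosome 28 from 1400446 to 1403202. The part of the gene that each probe lies in was not determined here.

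The other 11 largest falls shared by all 7 animals follow, without a theme that was tested. NR4A3, an immediate early nuclear receptor, was 2.83-fold higher at 3 months (SE of the log2 change 0.13) and CEBPD, a transcription factor induced by glucocorticoids, fell by 1.37 ± 0.17 (log2, SE). TNFRSF12A, the receptor of the cytokine TWEAK, fell by 1.38 ± 0.24. ASNS, the asparagine synthetase that amino acid shortage induces, fell by 1.33 ± 0.32, with changes from −3.27 to −0.38 in the animals. INHA, the alpha subunit of inhibin, lay between 11.45 and 13.65 at 3 months and between 10.41 and 12.12 at 7 months, a fall of 1.54 ± 0.17 (adjusted p = 0.00214). The ranges of INHA overlapped, yet each of the 7 animals fell by at least 0.88. SLC25A33, a mitochondrial carrier of pyrimidine nucleotides, fell by 1.36 ± 0.11 and METTL21E, a methyltransferase-like gene of muscle, by 1.49 ± 0.22. TTC39A fell by 1.35 ± 0.21. CPT1A, ACTC1 and HBB complete the 12 and are described with their groups below. Of these 12, ASNS lost its call in 1 of the fits that left out 1 slide (adjusted p up to 0.122), as did CPT1A (0.0615), and HBB in 2 of them (0.157).

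Among the 12 largest rises that all animals shared, CIDEC and FABP4 of fat cells came first and are described with the adipocyte genes. TRIM2, a ubiquitin ligase, rose by 0.98 ± 0.11, TSPYL4 by 0.98 ± 0.12 and G0S2, the inhibitor of adipose triglyceride lipase, by 0.97 ± 0.18. GATM, the enzyme of the first step of creatine synthesis, rose by 0.94 ± 0.15. A gene described as similar to the glutathione transferase GSTM1 rose by 0.93 ± 0.14. The 8 values of TSPYL4 at 3 months, from 10.56 to 11.14, all lay below those at 7 months, from 11.35 to 12.32. Without replicate 3 the calls of GATM (adjusted p = 0.0751), of the unnamed probe on chromosome 24 described next (adjusted p = 0.0536) and of the GSTM1-like gene (adjusted p = 0.0522) were lost.

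Another 4 of the 12 rises belong to probes that the files describe as unidentified transcripts, so their sequences are what identifies them. As above, the first 30 bases are shown.
Unnamed on chromosome 24: tttgaggttgatgctacaaacgaatgagtc
Unnamed on chromosome 10 (a): gccatgcctttgctttttctttcttaaatg
Unnamed on chromosome 10 (b): ggctgttcttttcagggatcatgctaaatg
Unnamed and not placed: tagctccccgacatttggtattaagtaagt
The chromosomes are those that the files give. The probe on chromosome 24 rose by 1.12 ± 0.24, the first probe on chromosome 10 by 1.03 ± 0.10, the second by 0.94 ± 0.13 and the probe that is not placed by 0.95 ± 0.13. Both probes on chromosome 10 had no overlap between the ages: the first lay between 9.83 and 10.77 at 3 months and between 10.99 and 11.84 at 7 months, and the second between 12.14 and 13.07 and between 13.27 and 13.59, respectively.

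**Figure D2:**
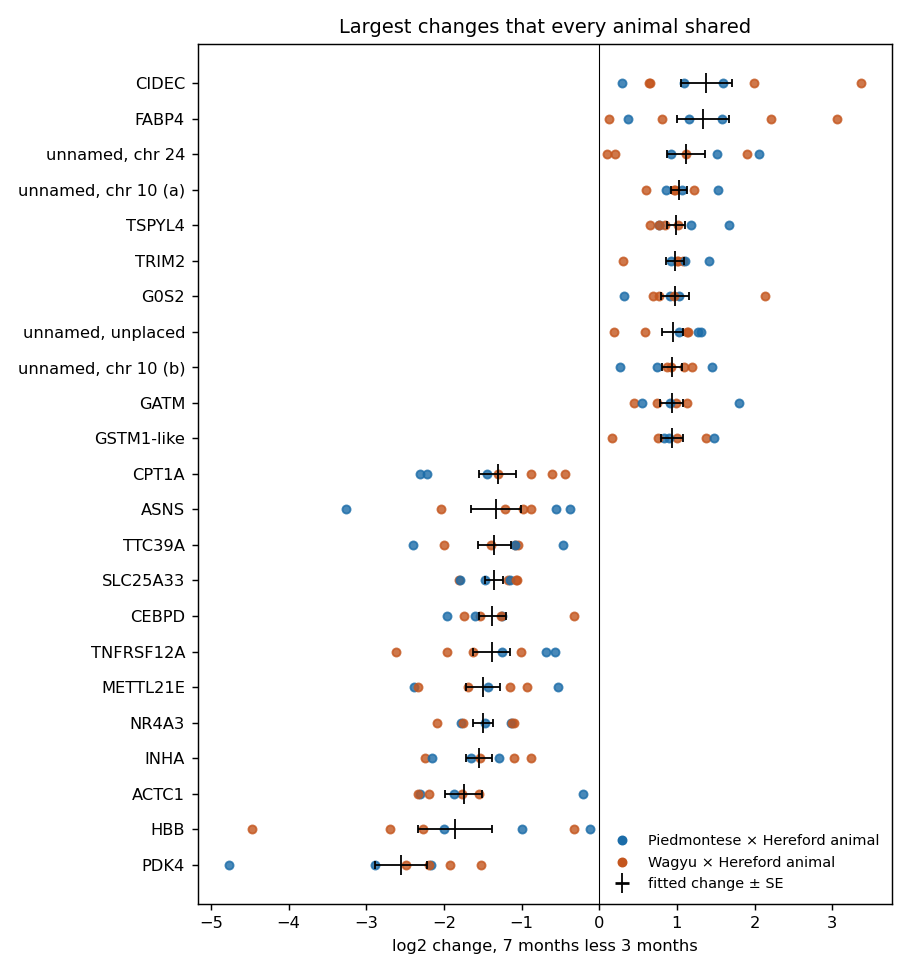
The log2 change from 3 to 7 months of 23 genes among those with the largest rises and falls that all 7 animals shared. Each point is 1 animal (blue, Piedmontese × Hereford; orange, Wagyu × Hereford) and the black bar is the fitted change ± SE. The animals lie close together for SLC25A33 (−1.81 to −1.06), and far apart for HBB (−4.47 to −0.12), PDK4 (−4.76 to −1.52) and CIDEC (0.29 to 3.37).

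Genes of fatty acid uptake and oxidation mostly fell where they passed. Of 26 members tested, 8 fell, 1 rose and 17 did not pass, with a median log2 change of −0.12 against −0.00 over all genes. With median centring alone the median was 0.16 against 0.13 over all genes, so its direction turned, and 0 passed (limma, 6 at an unadjusted p below 0.05). The share called, 34.6%, stood beside 14.1% over all genes. After PDK4, ANGPTL4 had the largest change, −1.87 ± 0.40 (adjusted p = 0.0190). ANGPTL4, the secreted inhibitor of lipoprotein lipase, lay between 10.36 and 14.47 at 3 months and between 9.88 and 12.25 at 7 months. The ranges overlapped, and GW212 was the 1 animal in which it was higher at 7 months, by 0.31. UCP3, the uncoupling protein of muscle mitochondria, lay between 13.48 and 15.44 at 3 months and between 12.76 and 14.26 at 7 months, and it fell in all 7 animals, by 1.13 ± 0.22 (adjusted p = 0.0140). PPARGC1A, the coactivator of mitochondrial genes, fell by 0.94 ± 0.21, in 6 of 7 animals, and GW212 differed from them with a rise of 0.09. Without replicate 3, ANGPTL4, UCP3 and PPARGC1A were among the genes that did not pass.

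Among the carnitine shuttle genes, CPT1B, the muscle form of carnitine palmitoyltransferase, fell by 0.47 and the carrier SLC25A20 by 0.21. CPT1A, the form best known from liver, is not on this list but was among the 12 largest falls: it lay between 10.57 and 12.02 at 3 months and between 9.26 and 10.53 at 7 months, without overlap, a change of −1.31 ± 0.24 (adjusted p = 0.0113). ACSL1, which activates fatty acids, fell by 0.41 and FABP3, which carries them in the cytosol of muscle, by 0.35. The fatty acid transporter CD36 (−0.06, adjusted p = 0.581), the lipase LPL (0.05), and HADHA (−0.20), HADHB (−0.06) and ACADVL (−0.00) of the oxidation cycle did not pass. ACADL, a dehydrogenase of long-chain fatty acids, was the 1 member that rose, by 0.32 ± 0.06. Without replicate 3, only 2 of the 26 passed, both downward. Without replicate 1, 2 or 4, 9, 7 and 8 passed.

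In the genes of carbohydrate breakdown and respiration no change passed the test. None of 24 genes of glycolysis and glycogen, 21 of the citric acid cycle and 43 of the respiratory chain and ATP synthase passed (limma, 4, 2 and 6 at an unadjusted p below 0.05), and their median log2 changes were −0.08, −0.03 and −0.09. Without replicate 4, 1 gene of glycolysis passed, and without replicate 2, 2 of the respiratory chain, all downward. With array means in place of channels, 0 passed in each of the 3 lists as well, with 2, 1 and 2 at an unadjusted p below 0.05. The largest changes were −0.25 (PHKA1, a subunit of phosphorylase kinase, adjusted p = 0.0523), −0.24 (DLD, adjusted p = 0.160) and −0.33 (NDUFB3, adjusted p = 0.0556). The sign of each of these 3 turned when channels were only centred on their medians, to 0.12, 0.12 and 0.0733.

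A minority of the adipocyte genes passed, all of them upward. Of 17 tested, 4 rose, 0 fell (limma) and 13 did not pass, 23.5% called beside 7.41% of all genes called upward, with a median log2 change of 0.47, and the median over the members was above 0 in each of the 7 animals. CIDEC, a protein of the lipid droplet surface, lay between 8.11 and 10.81 (median 8.89) at 3 months and between 8.77 and 12.22 (median 10.34) at 7 months. FABP4, the fatty acid binding protein of fat cells, lay between 8.27 and 11.14 and between 9.05 and 12.09. Ranges overlapped widely for both, since animals differed at either age, but both genes were higher at 7 months in 7 of 7 animals. The changes were 1.38 ± 0.33 for CIDEC (adjusted p = 0.0269) and 1.34 ± 0.33 for FABP4 (adjusted p = 0.0296), and GW179 rose most in both, by 3.37 and 3.06. CIDEA, a relative of CIDEC, rose by 0.59 ± 0.11 and AGPAT2, an acyltransferase of triglyceride synthesis, by 0.70 ± 0.06. AGPAT2 was alike in the animals, with rises from 0.50 to 0.91.

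Among the adipocyte genes that did not pass, PLIN1, the coat protein of lipid droplets, changed by 0.74 (adjusted p = 0.0516), ADIPOQ, the hormone adiponectin, by 0.78 (0.0639) and TRARG1 by 0.94 (0.0576). The regulators PPARG (−0.02) and CEBPA (0.09) and the lipases LIPE (−0.38) and PNPLA2 (−0.06) did not pass. Of 17 genes of fatty acid and triglyceride synthesis 1 passed, MLXIPL, which fell by 0.36 ± 0.10. Of the 19 genes tested of a fat module that the study chose on these samples, and which is therefore no independent evidence, 5 rose and 1 fell, 31.6% called beside 14.1% of all genes (ADIPOR2, a receptor of adiponectin, by 0.51 ± 0.12), with a median of 0.44. FBP1, a gluconeogenic enzyme of that module, rose by 0.81 ± 0.21. In samples of whole tissue, fewer or more cells of a type cannot be told apart from less or more RNA per cell. The log2 summed intensity of the 4 adipocyte markers that could be tested lay between 9.89 and 12.22 at 3 months and between 10.41 and 13.35 at 7 months, and LEP was too dim to be tested. The sum rose in all 7 animals, by 0.26 to 2.98, and the part of fat cells in the result was not tested. Without replicate 3, AGPAT2 alone of the 17 adipocyte genes passed, and without replicate 4, 2 passed. Without replicate 2, 6 passed. The count was 9 with plain background subtraction, 8 with processed signals or quantile normalization, and 2 with array means or with no animal block. The median was 0.70 with plain subtraction and 0.74 with processed signals. Of the 19 genes of the fat module, 1 passed without replicate 3 and 3 without replicate 4.

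**Figure D3:**
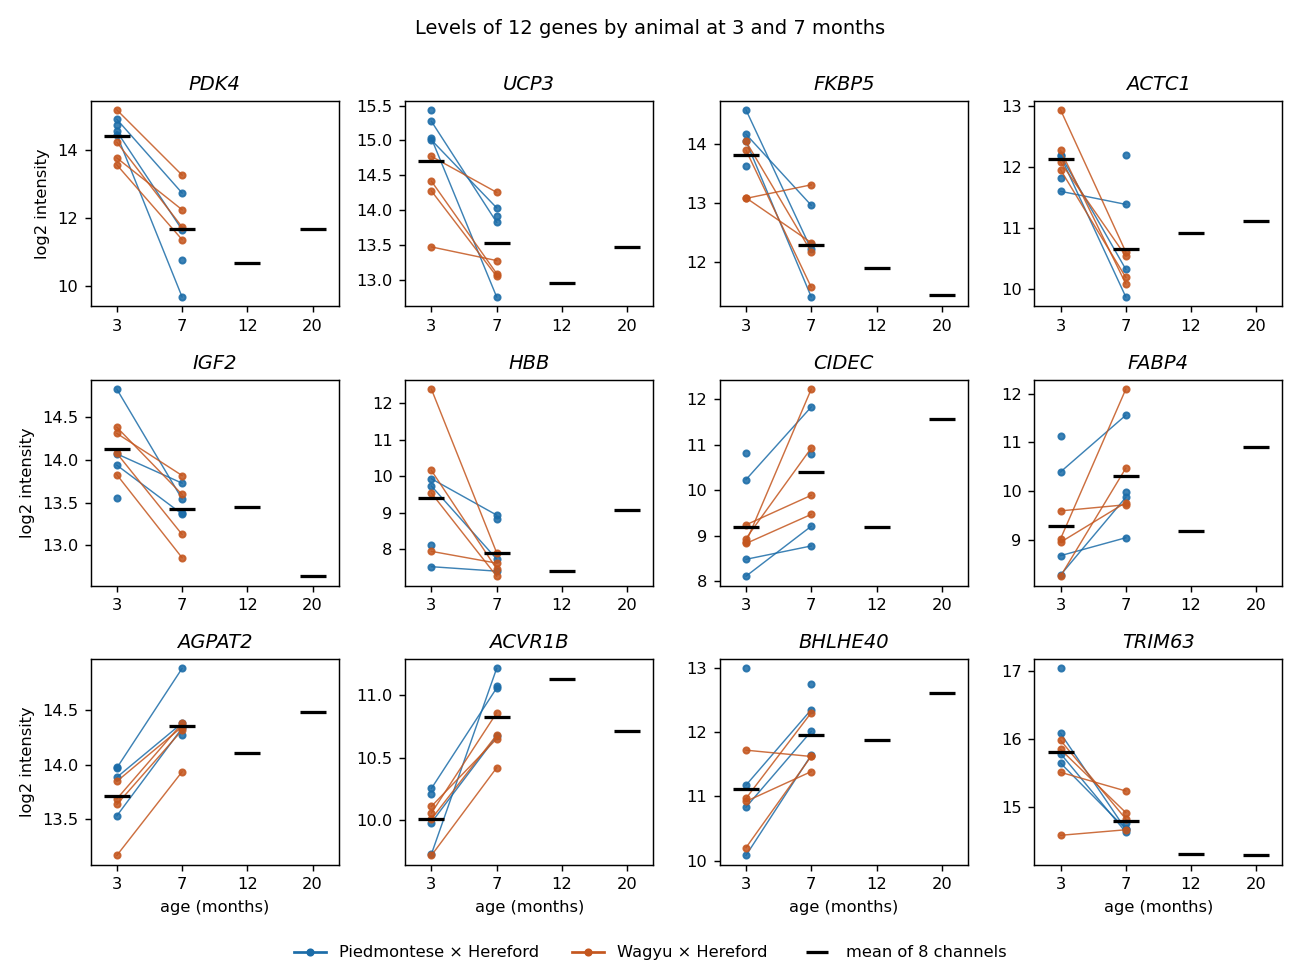
Log2 intensity of 12 genes at 3 and 7 months, with the values of 1 animal joined by a line (blue, Piedmontese × Hereford; orange, Wagyu × Hereford), single points for the animals measured at 1 age, and black bars for the mean of 8 channels at 3, 7, 12 and 20 months (at 12 months 3 of them are GW169). Scales differ between genes. All lines of PDK4, UCP3, ACTC1, IGF2 and HBB go down, and all lines of CIDEC, FABP4, AGPAT2 and ACVR1B go up.

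Of 17 genes of muscle atrophy, FOXO and glucocorticoid response, 5 fell, 0 rose (limma) and 12 did not pass, 29.4% called beside 6.73% of all genes called downward. The median was −0.31, and 3 of the 17 had a change above 0. FKBP5, a chaperone of the glucocorticoid receptor and its textbook target, lay between 13.08 and 14.57 at 3 months and between 11.42 and 13.31 at 7 months. It fell by 1.55 ± 0.33 (adjusted p = 0.0188), in 6 of 7 animals, and GW212 differed from the others with a rise of 0.23. CEBPD was described above, and its 8 values at 3 months, from 9.30 to 10.89, lay above its 8 values at 7 months, from 8.21 to 8.97. TRIM63, the ubiquitin ligase MuRF1 that marks fibre proteins for breakdown, fell by 0.82 ± 0.17 (adjusted p = 0.0176) in 6 of 7 animals. GLUL, glutamine synthetase, fell by 0.70 ± 0.20 and CDKN1A, the cell cycle inhibitor p21, by 0.55 ± 0.13. FBXO32, the ligase atrogin-1 that is known to move with TRIM63, changed by 0.35 (adjusted p = 0.470), FOXO3 by −0.18 and KLF15 by 0.05. The metallothionein MT2A changed by −0.89 (adjusted p = 0.0523). Without replicate 3, 1 of the 17 passed (CEBPD), and 9, 3 and 4 passed without replicates 1, 2 and 4.

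In the list of embryonic and neonatal contractile genes, 2 of 8 tested fell, 1 rose and 5 did not pass (median −0.15), 37.5% called beside 14.1% of all genes. The list also holds the acetylcholine receptor subunits CHRNG and CHRND, which are not contractile genes. ACTC1 was the only contractile gene that passed, so the share called does not describe contractile genes. ACTC1, the cardiac actin that skeletal muscle makes before and around birth, lay between 11.60 and 12.94 (median 12.13) at 3 months and between 9.87 and 12.21 (median 10.43) at 7 months. The ranges overlapped only through GP273, the animal without a 3 months sample, at 12.21. Within the 7 animals ACTC1 fell by 1.74 ± 0.24 (adjusted p = 0.00455), between 1.54 and 2.33 in 6 of them and by 0.21 in GP201. The adult skeletal actin ACTA1 changed by −0.09 (adjusted p = 0.597). CHRNG, the fetal gamma subunit of the acetylcholine receptor, fell in 7 of 7 animals, by 0.96 ± 0.12 (adjusted p = 0.00355), whereas its delta subunit CHRND rose in 7 of 7, by 0.42 ± 0.06. The embryonic myosin MYH3 (−0.48, adjusted p = 0.0858), the embryonic light chain MYL4 (−0.29) and TNNT2 (−0.01) did not pass, and the neonatal myosin MYH8 was too dim to be tested. These 3 calls were made with each slide left out in turn too.

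The adult fibre type genes did not pass in either direction. Of 13 fast fibre genes 0 passed (limma, 0 at an unadjusted p below 0.05), with a median of 0.01, and MYH1 (−0.01), MYH4 (−0.23), TNNT3 (0.05) and ACTN3 (0.11) were among them. Of 13 slow fibre genes 0 passed (limma, 2 at an unadjusted p below 0.05), with a median of −0.00, and MYH7 (−0.05), MYL2 (−0.00) and MYL3 (−0.00) were among them. With array means, 0 passed in both lists, with 0 and 3 at an unadjusted p below 0.05. Without replicate 1, 1 gene of each list passed, upward. MYL6B, a slow light chain, had the largest change of both lists, −0.48 (adjusted p = 0.280), with −2.35 in GP130 and between −0.72 and 0.14 in the other 6 animals.

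Of 11 myogenic regulators and satellite cell genes, 3 rose, 0 fell (limma) and 8 did not pass (median 0.09), 27.3% called beside 7.41% of all genes called upward. The 3 were members of the MEF2 family, the transcription factors that act with MyoD on contractile genes: MEF2A by 0.48 ± 0.10, MEF2C by 0.52 ± 0.12 and MEF2D by 0.33 ± 0.07, each in 7 of 7 animals. MEF2C lay between 8.40 and 9.48 at 3 months and between 9.27 and 9.85 at 7 months. MYOD1 changed by 0.74 (adjusted p = 0.0802), MYOG by 0.12, MYF5 by 0.05 and MYF6 by −0.14, and these did not pass. Without replicate 3, 1 of the 11 passed (MEF2A), and with no animal block 0 passed (limma, 5 at an unadjusted p below 0.05).

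Of 12 genes of myostatin and activin signalling, 3 rose, 1 fell and 8 did not pass (median 0.13), 33.3% called beside 14.1% of all genes. ACVR1B, a type I receptor through which activin and myostatin signal, had the clearest rise: it lay between 9.72 and 10.25 at 3 months and between 10.42 and 11.21 at 7 months, without overlap. The change was 0.81 ± 0.11 (adjusted p = 0.00413), from 0.54 to 1.49. MSTN, myostatin itself, the inhibitor of muscle growth, rose by 0.35 ± 0.09 (adjusted p = 0.0355) in 6 of 7 animals. FST, follistatin, which binds and blocks both ligands, rose by 0.37 ± 0.06 and FSTL3, another binder of them, fell by 0.65 ± 0.10, both in 7 of 7 animals. SMAD3 changed by 0.30 (adjusted p = 0.0536). The activin subunits INHBA (0.00) and INHBB (−0.05) did not pass, while INHA, their partner in inhibin, was among the 12 largest falls. ACVR1B and FSTL3 passed with each slide left out. FST did not pass without replicate 3 (adjusted p = 0.0585), and MSTN passed only without replicate 2 (adjusted p of 0.0510 to 0.128 in the other fits).

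Of 11 genes of the insulin-like growth factor system, 2 fell, 0 rose (limma) and 9 did not pass (median −0.11). The share called, 18.2%, stood beside 14.1% of all genes called in either direction and 6.73% called downward, and it rests on 2 genes. The median turned to 0.12 with median centring and to 0.02 with processed signals. IGF2, the growth factor that is most abundant before birth, lay between 13.55 and 14.83 at 3 months and between 12.85 and 13.82 at 7 months. It fell in 7 of 7 animals, by 0.77 ± 0.11 (adjusted p = 0.00558), and its mean was 13.45 at 12 months and 12.64 at 20 months. IGFBP3, the main carrier of these factors in blood, fell by 0.51 ± 0.11. IGF1 (−0.21), the receptors IGF1R (−0.11) and GHR (0.06) and IGFBP5 (0.26) did not pass. Among 12 imprinted fetal growth genes, which include IGF2, only IGF2 and MEST passed, both downward, 16.7% beside the same 2 shares of all genes. MEST fell by 0.61 ± 0.12. H19 (−0.24), DLK1 (0.19), PEG3 (−0.12) and GRB10 (0.41) did not pass. IGF2 passed with each slide left out, and IGFBP3 and MEST lost their calls without replicate 3 (adjusted p = 0.0918 and 0.0606).

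Many of the measured genes of cell division passed, all of them downward with probes averaged and the filter of 8 of 16 channels. Of 34 genes of a cell cycle module that the study chose on these samples, and which is no independent evidence of its direction, 16 fell, 0 rose (limma) and 18 did not pass. That is 47.1% called beside 6.73% of all genes called downward. Of the 34, 33 had a change below 0, with a median of −0.27, and the median was below 0 in each of the 7 animals. A further 15 genes of the module were too dim to be tested. With probes well above background in all 16 channels only 14 could be tested, of which 7 fell and 1 rose. With the brightest probe of each gene, 16 of the 34 fell and 1 rose. The size depended on the background correction, with a median of −0.66 and 20 calls with plain subtraction and a median of −0.99 and 22 calls with processed signals. With array means 4 of the 34 passed, and with no animal block 1. TOP2A, the topoisomerase that untangles chromosomes, fell most, by 0.78 ± 0.18, from a range of 7.66 to 9.14 to a range of 7.54 to 8.39. CKAP2 and CDCA3, both of mitosis, fell by 0.66 ± 0.12 and 0.65 ± 0.15, and RASSF4 by 0.63 ± 0.10. Further genes that fell were RRM2, of nucleotide synthesis (−0.49), the cyclins CCNB1 (−0.30) and CCNB2 (−0.36), UHRF1 (−0.40) and KIF23 (−0.54). PTTG1 (0.09) was the 1 member above 0. Without replicate 1, 2, 3 or 4, 11, 6, 9 and 2 of the 34 passed, all downward.

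The genes of the extracellular matrix that passed all fell, and only the collagens were near the share of all genes called downward. Of 15 collagens 1 fell, 6.67% beside 6.73% of all genes called downward. It was COL3A1 of fibrillar collagen, with −0.65 ± 0.19 (adjusted p = 0.0486), and 12 of the 15 had a change below 0 (median −0.35). COL3A1 did not pass in any fit with 1 slide left out. The animals differed in the median over the collagens, which was above 0 in 3 of the 7. Of 27 matrix glycoproteins and proteoglycans 6 fell and 0 rose (limma, median −0.22), 22.2% called beside 6.73% of all genes called downward. They were ASPN, asporin, by 0.73 ± 0.09, NID2 of basement membranes by 0.53 ± 0.13 and SPARC, which binds collagen, by 0.45 ± 0.12. The laminins LAMB1 and LAMA2 fell by 0.41 ± 0.07 each, and the perlecan HSPG2 by 0.24 ± 0.06. ASPN fell in 7 of 7 animals, from between 9.67 and 10.23 to between 8.71 and 9.77. Of 21 genes of collagen processing and matrix turnover all had a change below 0 (median −0.23). Of these 4 passed, 19% called beside the same 6.73%. Among them were CTSK, the collagen-degrading cathepsin K, by 0.72 ± 0.08, P4HA3, a prolyl hydroxylase, by 0.57 ± 0.12 and PLOD3, a lysyl hydroxylase, by 0.51 ± 0.08. P4HA3 was well above background in only 5 of 8 channels at 7 months. Its change lay between −1.68 and −0.55 over the settings tried with all slides, so its size is not settled. The fourth, P4HA2, fell by 0.36 ± 0.10. Without replicate 1, 2, 3 or 4, 13, 3, 2 and 3 of the 27 passed, and 7, 3, 3 and 2 of the 21. With no animal block 1 of the 27 and 3 of the 21 passed. The log2 summed intensity of the 6 fibroblast markers lay between 14.92 and 15.55 at 3 months and between 14.31 and 15.66 at 7 months, and it fell in 5 of 7 animals. The part of fibroblasts in the result was not tested. When channels were only centred on their medians, all genes shifted by 0.13, and the medians of the 3 lists, at −0.02 each, lay 0.15 below that of all genes.

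**Figure D4:**
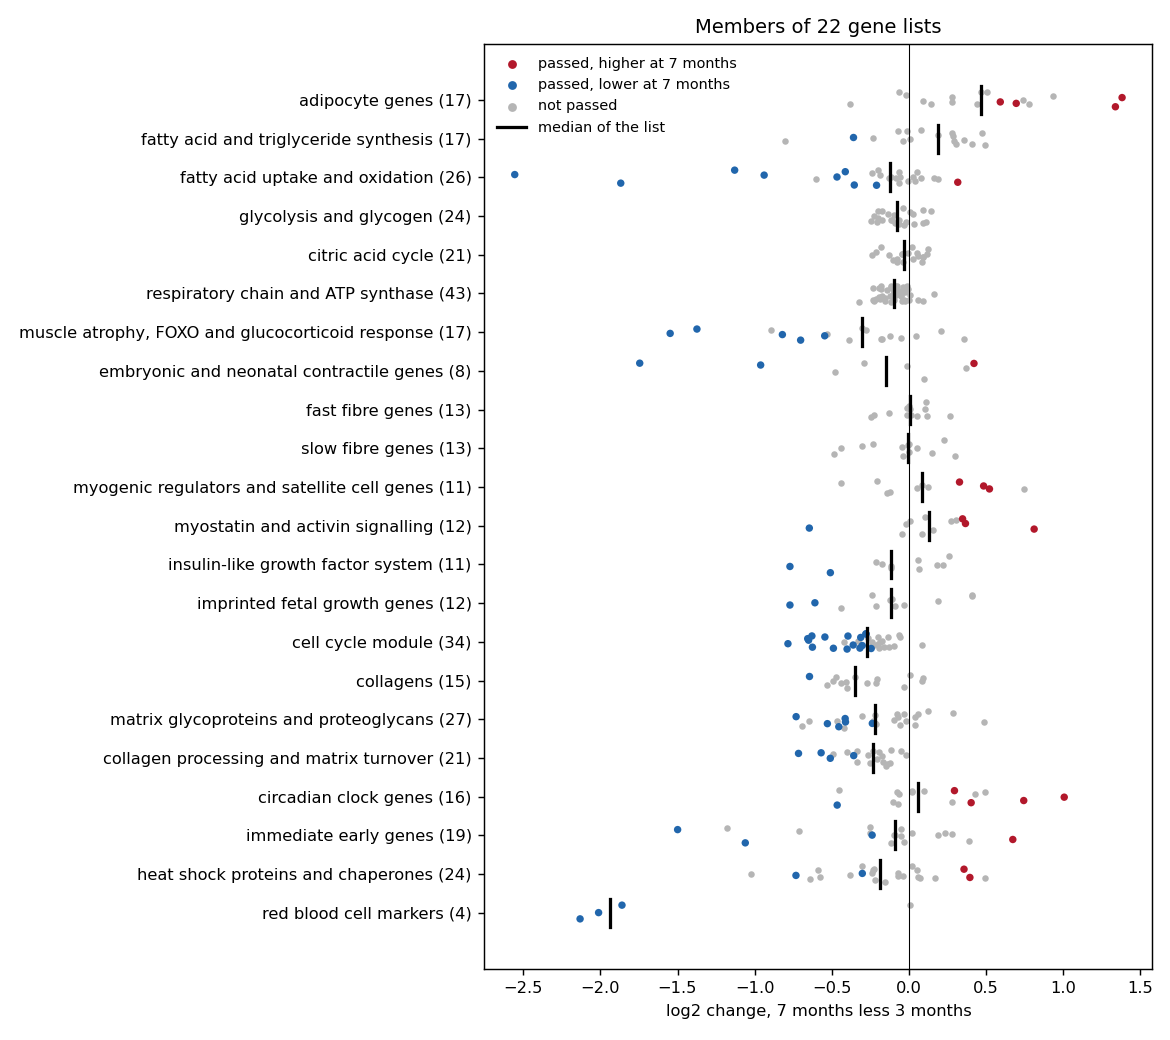
The log2 change from 3 to 7 months of every tested member of 22 gene lists, with the number tested in parentheses. Red points rose, blue points fell, grey points did not pass and the black line is the median of the list. The adipocyte genes lie mostly to the right of 0 (median 0.47), the cell cycle module to the left (median −0.27), and the fibre type genes around 0.

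Clock and immediate early genes moved in both directions. Of 16 circadian clock genes 4 rose, 1 fell and 11 did not pass (median 0.06), 31.2% called beside 14.1% of all genes. BHLHE40 and BHLHE41, repressors of the clock that also respond to low oxygen and exercise, rose by 1.01 ± 0.19 and 0.74 ± 0.10. CLOCK rose by 0.40 ± 0.09 and TEF, a clock output factor, by 0.29 ± 0.07, while RORA fell by 0.47 ± 0.12. The core genes ARNTL (0.02), PER2 (0.43, adjusted p = 0.278), CRY1 (−0.10), DBP (−0.07) and NR1D2 (0.28) did not pass. Of 19 immediate early genes NR4A1 rose, by 0.67 ± 0.16, and NR4A3, MYC (by 1.06 ± 0.28) and FOSL2 fell, 21.1% called. NR4A1 and NR4A3, which belong to 1 family, thus moved in opposite directions. FOSL2 was well above background in only 5 of 8 channels at 3 months and 3 of 8 at 7 months, and its change lay between −1.18 and −0.22 over the settings tried with all slides, so its size is not settled. Of 24 heat shock proteins and chaperones 2 rose (HSPB2 by 0.36 ± 0.09 and HSPB6 by 0.39 ± 0.11) and 2 fell (HSPA4 by 0.73 ± 0.19 and CCT2 by 0.30 ± 0.08), 16.7% called, which is near the share of all genes. With no animal block 1 clock gene, 2 immediate early genes and 0 heat shock genes passed (limma, 8 at an unadjusted p below 0.05). Without replicate 3, 1 of the clock genes (BHLHE41), 1 of the immediate early genes (NR4A3) and 1 of the heat shock genes (HSPA4) passed. Without replicate 1, 7 of the heat shock genes passed. CCT2 turned to 0.0770 when channels were only centred on their medians.

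The 3 globin probes fell, 75% of the 4 red blood cell markers tested beside 6.73% of all genes called downward. HBB, HBA and HBG, the probes for beta, alpha and fetal gamma globin of red blood cells, fell by 1.86 ± 0.47 (adjusted p = 0.0330), 2.01 ± 0.55 and 2.13 ± 0.57. The longest run shared by any 2 of these probes was 6 bases. Whether a probe also binds the RNA of another globin was not tested. HBB lay between 7.52 and 12.38 at 3 months and between 7.26 and 8.93 at 7 months, so the ages overlapped and the spread was wide at 3 months. The log2 summed intensity of the 4 tested red blood cell markers lay between 10.10 and 15.15 at 3 months and between 10.02 and 11.64 at 7 months. It fell by 4.48 in GW245 and by 0.10 in GW169, and it rose by 0.26 in GP130. AHSP (0.01) did not pass, and ALAS2 and SLC4A1 were too dim to be tested. The mean of HBB was 7.39 at 12 months and 9.07 at 20 months. Without replicate 3 or replicate 4, 0 of the 4 passed (limma, 3 at an unadjusted p below 0.05 in both fits). What part blood in the biopsies had in the results was not tested.

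Among the markers of other cells, 3 of 8 endothelial and pericyte markers fell: PECAM1 by 0.51 ± 0.13, TEK by 0.43 ± 0.10 and RGS5 by 0.33 ± 0.07. That is 37.5% called beside 6.73% of all genes called downward. VWF changed by 0.29 (adjusted p = 0.140). Of 8 leukocyte markers 1 fell, CD163, a scavenger receptor of macrophages that takes up haemoglobin, by 1.10 ± 0.23 (adjusted p = 0.0179). It fell in 6 of 7 animals and rose by 0.42 in GW245. The general leukocyte marker PTPRC (0.00) and CD68 (−0.04) and CD14 (0.23) of macrophages did not pass. Of 5 nerve and Schwann cell markers PMP22 fell, by 1.09 ± 0.23, and MBP (−0.07) did not pass. The ranges of the summed levels overlapped between the ages in all of these lists. At 3 and 7 months the log2 sum lay between 13.32 and 13.79 and between 13.15 and 13.59 for endothelium. It lay between 12.18 and 12.69 and between 11.54 and 12.85 for leukocytes, and between 13.55 and 14.19 and between 12.64 and 13.65 for nerve. Within animals the endothelial sum fell in all 7, with changes from −0.54 (GW169) to −0.02 (GW179). The leukocyte sum fell in every animal but GW245 (0.50), and the nerve sum in every animal but GP201 (0.10). The part of these cells in the results was not tested. Of 14 interferon response genes and of 20 genes of the study's immune module 0 passed (limma, 0 and 3 at an unadjusted p below 0.05, and 0 and 1 with array means). Without replicate 1, 1 gene passed in each of these lists. Of the study's other modules, 6 of 41 genes of muscle and glycolysis passed (2 upward, 4 downward, led by LAMB3 at 0.40 and TBX15 at −0.44), which at 14.6% is near the 14.1% of all genes and came to 0 with array means (limma, 7 at an unadjusted p below 0.05). In the other modules 1 of 29 genes of mitochondria (ENDOG, 0.24) and 1 of 22 of the ribosome (RPL13A, −0.33) passed. Of 20 genes of cholesterol synthesis and uptake 1 passed, FDFT1, squalene synthase, which rose by 0.57 ± 0.16. Without replicate 3 or 4, 0 of the 8 endothelial markers passed (limma, 4 and 3 at an unadjusted p below 0.05), and CD163 and FDFT1 lost their calls in both fits. PMP22 lost its call without replicate 4, and of the 41 genes of muscle and glycolysis 1 passed without replicate 3 and 2 without replicate 4.

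Whether the change from 3 to 7 months differed between the crosses was tested with an age by cross term on 3 animals of the Piedmontese and 4 of the Wagyu cross. Of the 13587 genes 0 passed, 0% called (limma), and 772 had an unadjusted p below 0.05, 5.68% of those tested. With 1 slide left out, and from the deposited log ratios, 0 passed as well. In simulated data, with independent noise in each channel, this term recovered 62.7% of the genes with a true difference of 1 on the log2 scale. It recovered 14.9% of those with a difference of 0.5. PDK4 changed by −3.27 in the Piedmontese and by −2.03 in the Wagyu cross, CIDEC by 1.00 and 1.66, FABP4 by 1.04 and 1.55, and HBB by −1.04 and −2.44. MSTN changed by 0.36 and 0.33 and IGF2 by −0.74 and −0.80. None of these differences passed the test.

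The step from 7 to 12 months on the same 4 slides was set against that from 3 to 7 months, in 1 fit of all 16 arrays. The 2 steps share the 7 months arrays, so a level that is high or low on those arrays alone moves both steps, in opposite directions. The 12 months channels came from 6 animals: GW169 filled 3 of the 8, and GW212 and GW245 were absent. The 5 animals measured at both 7 and 12 months changed dye between these ages, apart from 1 channel of GW169, whereas every animal kept its dye from 3 to 7 months, so dye and age are not separated in the second step in the same way. They differed in 1301 genes, 9.58% of those tested, 635 with the higher value in the second step and 666 with the lower (limma). From 7 to 12 months alone, 15% of the genes were called. Without replicate 2, 3 or 4 the difference was called in 643, 569 and 601 genes, without replicate 1 in 966, and with median centring alone in 0 (limma, 88 at an unadjusted p below 0.05).

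FABP4 rose by 1.30 in the first step and fell by 1.44 in the second, a difference of −2.74 ± 0.47 (adjusted p = 0.000855), and CIDEC rose by 1.34 and fell by 1.30. The means of CIDEC were 9.19, 10.39, 9.18 and 11.57 at 3, 7, 12 and 20 months, with the 12 months mean taken over 6 animals. ANGPTL4 went the other way: it fell by 2.18 in the first step and changed by 1.28 in the second (adjusted p of the second step 0.0736), and the difference was 3.46 ± 0.82. OTUD1, a deubiquitinase, changed by 0.09 and then fell by 3.41, and a probe described as similar to the kinase SNF1LK changed by 0.21 and then fell by 1.90. The unnamed transcript that is not placed rose by 0.91 and fell by 1.16. HMOX1, the enzyme that breaks down haem, fell by 0.96 and then rose by 0.86, and H2AC20, a histone, fell by 0.50 and rose by 1.27. The 2 other genes with the largest differences are probes that the files place on putative orthologues of microRNA precursors, 1 for mir-133b and 1 for mir-133a-1 of muscle. They fell by 1.25 and 1.27 in the first step and rose by 1.21 each in the second. PDK4 changed by −2.68 and then by −1.20 in this fit (adjusted p of the second step 0.0902), and the difference between its steps did not pass (adjusted p = 0.272, limma). The calls of OTUD1 without replicates 1 or 4, of ANGPTL4 without replicates 2 or 3 and of HMOX1 without replicate 3 were lost, and all 10 lost their call with median centring alone.

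Array position was measured without age on the diet slides of Belmont Red cattle, where positions 1 and 2 held the same time and both diets. Position 1 held the animals RL27 and RG166 on all 3 slides. Position 2 held RL24, with RG604 at diet times 0 and 1 and with RG166 at diet time 2. The position difference is therefore largely also a difference between animals, which cannot be told apart from it. Of 13642 genes 0 differed between the positions, 0% called (limma), and 462 had an unadjusted p below 0.05, 3.39% of those tested. With 3 slides the test recovered 0% of simulated differences of 0.5 on the log2 scale, 28.4% of those of 1 and 68.2% of those of 2. The lack of calls therefore says nothing on position differences of 0.5 or less. Over the 100 genes chosen for naming, the difference of position 2 less position 1 lay between −0.88 (CLOCK) and 0.79 (HBG). Its median size was 0.12 beside 0.65 for the change with age. Most of these genes were named for their change with age, which raises the 0.65 and not the 0.12. The 2 medians therefore do not show how position compares with age. The position difference had the sign of the age change and was more than 0.5 times as large in 9 of the 92 that passed: CTSK, MEST, P4HA3, SPARC, CIDEB, NR4A1, FDFT1, HSPB6 and BHLHE40. For BHLHE40 the position difference was 0.63, for NR4A1 0.46 and for CTSK −0.54. For PDK4 it was 0.11, for CIDEC 0.10, for ACTC1 0.25, for IGF2 0.06 and for ACVR1B 0.08.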

How the data were processed

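LTL muscle RNA had been labelled and hybridised by the authors on 2-colour Agilent arrays, and the deposited files hold the mean intensity and the local background of every spot in both channels, computed by Agilent Feature Extraction 9.5.1 per the labels. The depth of an array is its signal over background, and the number of arrays limits the precision. Intensities were corrected by normexp (offset 50), normalized by loess within and Aquantile between the 16 arrays of the 4 slides, and probes of a gene were averaged (limma 3.58.1, R 4.3.3, Python 3.11.15). Control spots and outlier spots were left out. A probe was kept when well above background in at least 8 of 16 channels. Of 21475 probes 16752 were matched to RefSeq genes, and 900 of the genes tested had several probes. Probes matched to a gene other than the one described (367) were left out of lists and naming. The fit used the correlation of the channels of a spot (0.0554), animal as a block, and a threshold of 0.05. Animals pair the samples: the correlation of deviations from group means lay between 0.238 and 0.420 for the same animal at both ages. On simulated data 79.1%, 94.0% and 100% of genes changed by 0.5, 1 and 2 (log2) were recovered, with 13 false calls. The simulated noise was independent between channels and held no effect shared by an array or a slide. Recovery and false calls under such shared effects were not tested. At 3 months the 8 channels came from 8 different animals, and likewise at 7 months, with 7 animals present at both ages. Those at 12 months came from 6 animals. Slides and scan sessions are shared by the ages, and the animals measured at both 3 and 7 months kept their dye. Batches of labelling were not examined. Genes named are the 12 largest rises and falls shared by all 7 animals, list members that passed (at most 4 in each direction in lists with over 8), the largest change of lists in which none passed, and the 5 largest differences in each direction for the second step. The members, the lists and these rules were chosen with earlier results of these data known. Some genes that these rules name are not reported here. Other list members given with values were chosen after their values were seen. Where the calls of a list all went 1 way, the share of all genes called that way was mostly set beside it. That side was taken after the calls were seen, and the share in either direction was 14.1%. A difference between sums or levels is on the log2 scale throughout, and levels of different probes are not compared. The deposited log10 ratio of Cy5 over Cy3, made by the scanner software, served as an alternative for the crosses, and the series' own table of ratios was not used.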

Additional observations from a re-analysis of the deposited data

Results flagged for a closer look

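Of the 100 named genes, 9 had 1 animal that stood apart from the other 6 in its change from 3 to 7 months, by Dixon's test at the 95% level. Chance gives about 1 in 20 such groups. PDK4 changed by −4.76 in GP285 and by −2.89 to −1.52 in the others. ACTC1 changed by −0.21 in GP201 and by −2.33 to −1.54 in the others. ACVR1B changed by 1.49 in GP285 and by 0.54 to 0.80 in the others. G0S2 changed by 2.13 in GW179 and by 0.31 to 1.03 in the others, and HSPA4 by −2.02 in GW179 and by −0.76 to −0.30 in the others. GW245 stood apart in 3 genes: CD163 (0.42, others −1.78 to −0.92), CASQ1 of calcium storage (−0.59, others 0.25 to 0.79) and USP18 of the interferon response (1.77, others −0.11 to 0.36). MYL6B changed by −2.35 in GP130 and by −0.72 to 0.14 in the others.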

How the results depend on the processing

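Calls depended on the fit more than directions did. With median centring alone, 0 genes passed from 3 to 7 months (limma, 2165 at an unadjusted p below 0.05), 0 of the 543 list members (104), and 0 for the second step against the first (88), while 8 passed for array position. With no animal block, that is with cross in place of animal in the fit, 570 genes and 25 list members passed, in place of 1921 and 91. With array means, and slide as a block, 963 and 60 passed. With 1 slide left out the numbers were 480 to 2360 genes, 30 to 112 list members, and 569 to 966 genes for the second step, while the age by cross term gave 0 throughout (limma, 436 to 1847 at an unadjusted p below 0.05). The other settings gave 1580 to 2559 genes. The sign of RPL13A (0.0749), NDUFB3 (0.0733), CCT2 (0.0770), PHKA1 (0.12), HSPG2 (0.0801), DLD (0.12) and DHRS7C (0.21) turned with median centring, which moved the median of all genes to 0.13. The cause was not tested. Of 1595 values of named genes under the alternatives, 1238 kept direction and call, 342 kept direction and lost the call, and 8 gained it. The 4 slides are the only source of replication, and 15 cell cycle genes, MYH8 and LEP were too dim to be tested.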

Other observations

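Across genes, the changes of 2 animals correlated between 0.0930 and 0.611 (median 0.385 over 21 pairs), and GW245 with GW169 was the lowest pair. Genes are not independent replicates, and animals on 1 array share its effects. The median over pairs on the same slide was 0.572.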
